A study of Homo sapiens with 6 samples.

Results

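A group of 9 regulators of cell division were followed in NIH:OVCAR-3 cells grown sparse or crowded, namely PTTG1, SMC3, TFDP1, RBL1, RBL2, MTBP, BTG1, CDKN1A and CDKN2A. They are 9 of the 770 genes read by the nCounter PanCancer Progression Panel, in which each captured RNA molecule is counted by its fluorescent barcode. The 9 genes were chosen by their measured values in these same samples, as genes that promote division set against genes of arrest. The former are PTTG1, SMC3, TFDP1 and MTBP, and the latter are RBL1, RBL2, BTG1, CDKN1A and CDKN2A. The differences of all 9 genes between densities are therefore a description, and no p-value is given for them. NIH:OVCAR-3 is an established line of serous ovarian carcinoma. Cells were cultured without other treatment for 1 week in medium with 20% serum, and each assay used 100 ng of total RNA. Low and high density were each represented by 3 samples (a medium density was not analysed here). The labels did not say whether the samples of a group came from separate cultures, so the spread among the 3 samples may be technical. An SD covers the 3 samples of its group alone. The SEs and p-values come from a fit that draws mostly on spread pooled across all genes tested, in the same samples. That pooled spread may be technical too. Values are normalized counts, that is, barcode counts scaled so that 30 reference genes had the same geometric mean in every sample.

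Division is held back at the passage from G1 into S phase by pocket proteins (RB1, RBL1 and RBL2), which bind E2F transcription factors and their DP partners and keep the genes of DNA replication silent. Cyclin-dependent kinases release this block, and the inhibitors encoded by CDKN1A (p21) and CDKN2A (p16INK4A, with ARF from another reading frame) hold the kinases in check. Later, cohesin, of which SMC3 is a core subunit, holds sister chromatids together until separase cuts it, and securin, encoded by PTTG1, restrains separase until anaphase. In epithelial cultures, crowding is known to slow division, a behavior called contact inhibition, which cancer cells often lose in part.

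The promoters of 3 genes are shown because PTTG1 and BTG1 were the furthest apart and because RBL1 holds more than 1 E2F motif in this window. The sequences are the 250 bases before the transcription start in RefSeq (GRCh38.p14), read 5′ to 3′ on the strand of the gene, with E2F motifs and CCAAT boxes of either strand in capitals. PTTG1 lies at chr5:160421605-160421854 (plus strand), BTG1 at chr12:92145847-92146096 (minus strand) and RBL1 at chr20:37095998-37096247 (minus strand).
PTTG1: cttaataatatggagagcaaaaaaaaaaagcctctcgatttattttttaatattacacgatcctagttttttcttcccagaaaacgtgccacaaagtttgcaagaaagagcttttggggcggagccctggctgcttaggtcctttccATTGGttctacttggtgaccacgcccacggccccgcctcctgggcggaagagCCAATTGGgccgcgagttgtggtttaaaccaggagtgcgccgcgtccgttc
BTG1: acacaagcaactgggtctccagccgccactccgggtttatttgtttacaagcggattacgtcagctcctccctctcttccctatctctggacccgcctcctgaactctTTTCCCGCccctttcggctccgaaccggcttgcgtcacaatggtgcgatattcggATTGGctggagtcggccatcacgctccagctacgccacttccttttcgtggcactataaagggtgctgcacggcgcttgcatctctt
RBL1: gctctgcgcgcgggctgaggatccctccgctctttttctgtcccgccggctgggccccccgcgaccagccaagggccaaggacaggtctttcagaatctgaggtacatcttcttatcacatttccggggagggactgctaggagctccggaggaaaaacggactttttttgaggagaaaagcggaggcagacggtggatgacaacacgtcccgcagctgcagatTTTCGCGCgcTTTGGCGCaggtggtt

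The E2F motif was searched as TTTCCCGC, TTTCGCGC, TTTGCCGC or TTTGGCGC, and the CCAAT box as CCAAT, each on both strands. The RBL1 window held 2 E2F motifs, at 26 to 19 and 16 to 9 bases before the start. BTG1 held 1 E2F motif, at 142 to 135 bases before the start, and 1 CCAAT box. The PTTG1 window held 3 CCAAT boxes, of which the one at 51 to 47 bases and the one at 48 to 44 bases, on opposite strands, overlapped, and no E2F motif. Of the other windows searched, TFDP1 held 1 E2F motif and SMC3 held 1 cell cycle homology region (TTTGAA), while RBL2, CDKN1A and CDKN2A held none of these letters. Among all 35116 windows in the RefSeq table, 2.79% held an E2F motif, 32.0% a CCAAT box and 13.3% a cell cycle homology region. Of the 8 genes searched (MTBP was not searched), 3 (PTTG1, RBL2 and CDKN2A) had more than 1 RefSeq window, and the one at the 5′ end of the gene was used. Their other windows were not searched, so for CDKN2A the result need not hold for both of its products. A match describes letters and not binding.

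PTTG1 and BTG1 stood at opposite ends. PTTG1 (securin) had 7344, 7170 and 7718 normalized counts in the 3 low density samples, against 2702, 2682 and 2839 in the 3 high density samples. Every low density sample lay above every high density sample, and the smallest gap between them was 4331. The means were 7410 ± 280 in low density samples and 2741 ± 85.4 in high density samples (SD, n = 3 each), a 2.70-fold ratio and a log2 difference (low minus high) of 1.43 ± 0.04 (SE). In the order of log2 differences among the 480 genes tested, PTTG1 was number 15 from the top. PTTG1 made up 1.15% to 1.19% of all gene values in low density samples and 0.391% to 0.420% at high density. In a bulk culture, a smaller share of dividing cells and less RNA per dividing cell cannot be told apart, for PTTG1 or for any gene below.

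BTG1 encodes an antiproliferative protein that binds the CCR4-NOT deadenylase and is known to be high in resting cells. It had 980.1, 912 and 909 normalized counts at low density, against 1987, 1978 and 1894 at high density. The groups were again apart, here with low density below, at 934 ± 40.2 against 1953 ± 51.3 (SD, n = 3 each). The log2 difference was −1.06 ± 0.04, number 12 from the bottom of the 480 genes.

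**Figure D1:**
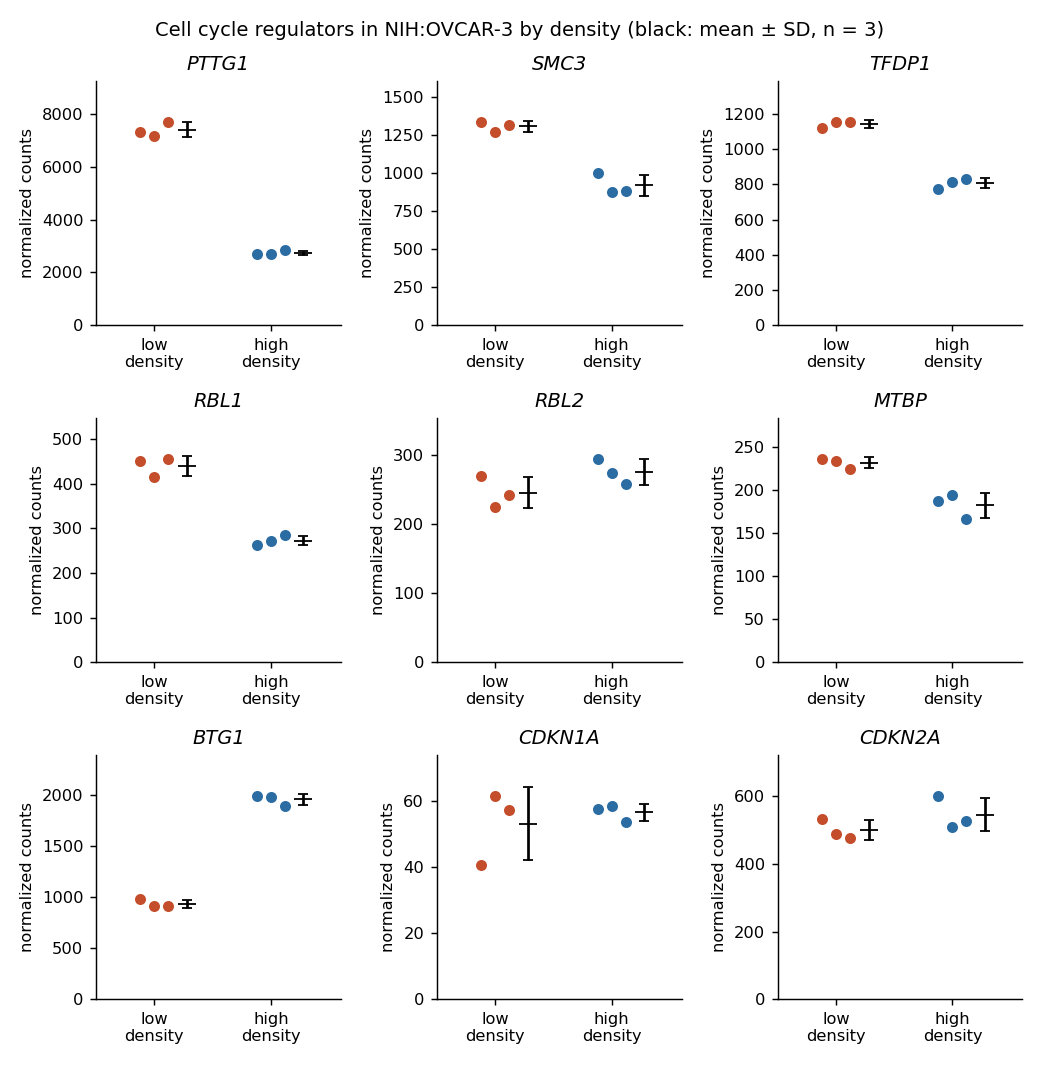
Normalized counts (y axis, from 0) of the 9 genes in each sample, with the 3 low density samples left of the 3 high density samples and the mean ± SD in black. PTTG1, SMC3, TFDP1, RBL1 and MTBP lay higher at low density with no overlap, BTG1 lay lower with no overlap, and RBL2, CDKN1A and CDKN2A overlapped.

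The other genes that take part in division were higher at low density, by smaller amounts. SMC3, the cohesin subunit, had 1336, 1266 and 1312 normalized counts at low density, against 996, 877 and 878 at high density. The groups did not overlap, although high density replicate 1 lay well above the other two high density samples (log2 difference 0.51 ± 0.05). TFDP1, which encodes the DP1 partner of E2F factors, had 1117, 1156 and 1154 at low density, against 775, 815 and 830.1 at high density. This gave means of 1142 ± 21.6 and 807 ± 28.5 (SD, n = 3 each), again with no overlap, and a log2 difference of 0.50 ± 0.05. MTBP, which encodes a binding partner of MDM2 that is also needed to fire replication origins, had 236, 234 and 224 (224.5 before rounding) at low density, against 187, 194 and 166 at high density. Its groups stood 30.9 normalized counts apart, the narrowest gap among the genes whose groups did not overlap (log2 difference 0.35 ± 0.09).

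The pocket proteins did not move together. RBL1 (p107), which represses E2F target genes and is itself known as an E2F target that accumulates in dividing cells, had 449.8, 414 and 456 normalized counts at low density, against 262, 272 and 284 at high density. The groups were apart (log2 difference 0.69 ± 0.07). RBL1, though set among the genes of arrest, was thus higher at low density, like the genes that promote division. RBL2 (p130), the pocket protein best known from resting cells, had 269, 225 and 241 at low density, against 294, 274 and 257 at high density. These overlapped, since low density replicate 1 lay above high density replicate 3, and the means were 245 ± 22.3 and 275 ± 18.4 (SD, n = 3 each). RB1, another pocket protein but not among the 9 genes, had 392, 415 and 362 in low density samples against 372, 408 and 411 at high density, which missed the threshold (−0.03 ± 0.07, limma adjusted p = 0.765).

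Ratios of 2 genes within a sample do not depend on how that sample was scaled. PTTG1 over BTG1 was 7.49, 7.86 and 8.49 at low density, against 1.36, 1.36 and 1.499 at high density, a 5.66-fold shift between geometric means. RBL1 over RBL2 was 1.67, 1.84 and 1.89 at low density, against 0.892, 0.992 and 1.10 at high density. Both ratios separated the densities. For PTTG1 over BTG1 this was fixed in advance, since the 2 genes were picked as the furthest apart in these samples. RBL1 and RBL2 were chosen on the same contrast, and RBL1 alone already separated the densities. Every ratio in this paragraph holds a gene chosen in that way, so the ratios describe and add no independent support. RBL1 over RB1 was 1.13 ± 0.131 in low density samples and 0.688 ± 0.0195 at high density, with no overlap, whereas RBL2 over RB1 was 0.632 ± 0.0783 at low density, against 0.696 ± 0.0851 at high density (SD, n = 3 each), with overlap. TFDP1 over RBL1 was 2.48 to 2.79 in low density samples and 2.92 to 2.996 at high density, so the repressor differed by more than the DP subunit. PTTG1 over SMC3 was 5.68 ± 0.192 in low density samples and 3.002 ± 0.266 at high density (SD, n = 3 each), so the 2 genes of sister chromatid separation differed by unequal amounts. Each probe has its own capture efficiency, so the size of a ratio says nothing of relative RNA levels, and only its shift between samples can be read.

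**Figure D2:**
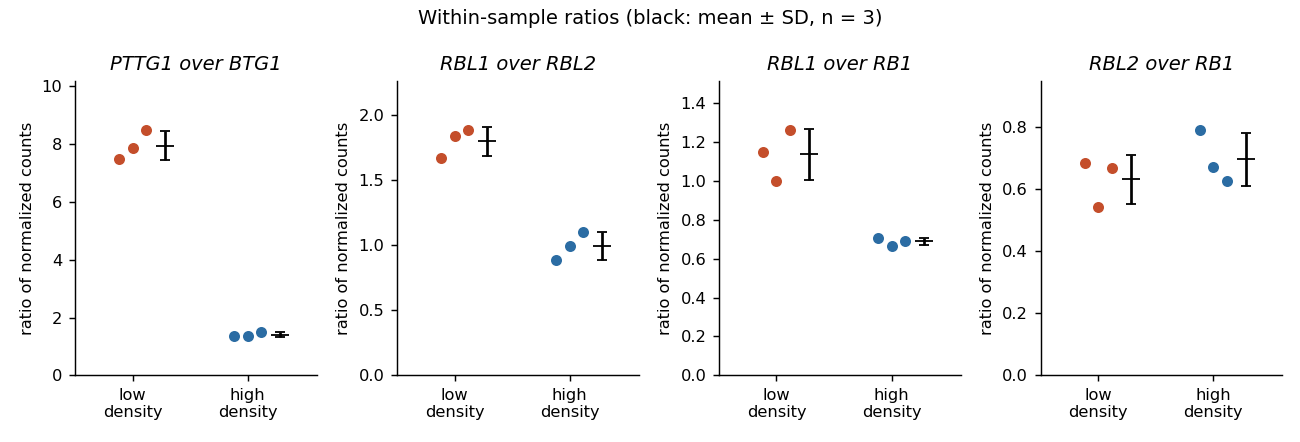
Ratios of normalized counts within each sample (y axis, from 0) for 4 pairs of genes, with low density left of high density and the mean ± SD in black. PTTG1 over BTG1, RBL1 over RBL2 and RBL1 over RB1 were higher in every low density sample, while RBL2 over RB1 overlapped.

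The kinase inhibitors showed no separation. CDKN1A had 40.8, 61.6 and 57.3 normalized counts at low density, against 57.8, 58.6 and 53.6 at high density. Low density replicate 1 lay below every other sample and low density replicate 2 above every other, so that the high density samples fell within the low density range. The log2 difference was −0.11 ± 0.16, and it was 0.07 without low density replicate 1 and −0.22 without low density replicate 2. These values rest on 42 to 69 barcodes per sample, and all lay above the background limit of the negative controls (12.3 to 18.1 normalized counts per sample, their mean plus 2 SD). At this depth, counting error alone gives a coefficient of variation of 13.2% in low density samples and 13.8% at high density, so a small difference in CDKN1A was not detectable. CDKN2A had 533, 488 and 475 at low density, against 599.7, 508 and 525 at high density. High density replicate 1 was the highest, and low density replicate 1 lay above the other two high density samples (means 499 ± 30.4 and 544 ± 48.9, SD, n = 3 each; log2 difference −0.12 ± 0.06). The panel does not say which of the 2 CDKN2A products its probe reads, and the probe was not given in the sources used here.

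In the fit across all genes, 6 of the 9 genes passed the threshold (adjusted p under 0.05), 5 higher and 1 lower at low density, and 3 (RBL2, CDKN1A and CDKN2A) did not. Of all 480 genes tested, 66.2% passed, 38.8% higher and 27.5% lower. The groups did not overlap for 6 of the 9 genes and for 66.0% of all genes tested. All 9 genes lay above the floor of 20 normalized counts. Their median log2 difference was 0.35, against 0.04 over all genes tested. The genes were chosen on this contrast, so nothing is read from these shares. Scaling to the positive control probes in place of the reference genes shifted the log2 difference of the median gene by 0.15, and then 240 genes passed higher and 76 lower, against 186 and 132 with the deposited scaling. Median-of-ratios scaling gave 161 higher and 161 lower genes, quantile normalization gave 151 and 147, and DESeq2 gave 135 and 134, so the excess of higher genes depended on the scaling. Under positive control scaling PTTG1 was 1.58, RBL1 0.83, SMC3 0.66, TFDP1 0.65, MTBP 0.49 and BTG1 −0.92, while RBL2 (−0.02), CDKN1A (0.04) and CDKN2A (0.02) lay next to 0, CDKN1A and CDKN2A with the opposite sign. Median-of-ratios scaling moved these 3 genes the other way, to −0.23 for RBL2, −0.17 for CDKN1A and −0.19 for CDKN2A. With it 8 of the 9 genes passed, 5 higher and 3 lower (BTG1, RBL2 and CDKN2A), and CDKN1A did not. With quantile normalization RBL2 lay at −0.28, and 7 of the 9 passed.

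Other genes of the cell cycle were read from lists written from general knowledge, with earlier results of these data known. Of 220 genes listed, 30 were on the panel, 9 of them the genes above. The 28 listed genes of DNA replication and proliferation were not analysed here, so no such marker gives the level of division itself. The remaining 21 genes were all tested. Of these, 11 rose, 4 fell and 6 did not pass (median log2 difference 0.14), while 14 rose and 2 fell under positive control scaling, and 9 rose and 5 fell when samples were scaled by the median of ratios. Over all 480 genes tested, 66.2% passed, 38.8% higher and 27.5% lower at low density. Nothing particular to cell cycle genes is read from these counts.

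Among growth suppressors outside the 9 genes, NF2, which encodes merlin, a mediator of contact inhibition upstream of the Hippo pathway, had 2135, 2102 and 2126 normalized counts at low density, against 1268, 1217 and 1236 at high density (0.77 ± 0.04, adjusted p = 4.6e-55). NF2 RNA was thus higher in sparse cells. Merlin protein was not measured here, and its part in contact inhibition was not tested. DLC1, which encodes a RhoGAP, had 23.3, 38.4 and 32.9 in low density samples and 22.9, 24.1 and 17.1 at high density, with overlap and close to background (0.53 ± 0.23, adjusted p = 0.0312). The adjusted p was 0.161 without low density replicate 2 (0.38) and 0.0989 without replicate 3 (0.48), and it was 0.0617 without high density replicate 1 (0.58) and 0.151 without replicate 3 (0.38). CDK14, the one cyclin-dependent kinase of the lists on the panel, had 101, 88.4 and 116 in low density samples and 71.7, 90.0 and 65.8 at high density (0.42 ± 0.13, adjusted p = 0.00313). It overlapped between the groups, and the call was lost under quantile normalization (0.17, adjusted p = 0.301), by DESeq2 (0.35, adjusted p = 0.102), by the methods' test (adjusted p = 0.112) and without low density replicate 3 (0.33, adjusted p = 0.0534).

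The SCF ubiquitin ligases, which mark kinase inhibitors and cyclins for degradation, share the scaffold CUL1, the adaptor SKP1 and the RING subunit RBX1. RBX1 had 1933, 1869 and 1927 normalized counts at low density, against 1333, 1301 and 1274 at high density, with no overlap (0.55 ± 0.04, adjusted p = 8.4e-32). SKP1 was 12433 ± 420 (SD) in low density samples and 11457 ± 220 at high density (0.12 ± 0.03, adjusted p = 6.6e-04). Its difference was 0.05 under median-of-ratios scaling (adjusted p = 0.0464) and by DESeq2, where the call was lost (adjusted p = 0.0729), as it was without the mean trend (adjusted p = 0.0604). CUL1 was 1370 ± 41.7 in low density samples and 1368 ± 57.2 in high density samples, and it missed the threshold (0.00 ± 0.04, adjusted p = 0.965). The subunits thus differed in size of change. The HECT ligases SMURF1 (0.47 ± 0.09, adjusted p = 4.9e-07) and SMURF2 (0.25 ± 0.04, adjusted p = 2.6e-08), which act on SMAD proteins, also rose.

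Of 11 genes that encode regulators of kinase inhibitor genes, 4 rose, 3 fell and 4 did not pass. Over all 480 genes tested 66.2% passed, so nothing about this list is read from the counts. ID1 (1.63 ± 0.04, adjusted p = 2.8e-167) and ID2 (1.54 ± 0.06, adjusted p = 3.3e-86), which restrain transcription of CDKN1A and CDKN2A through basic helix-loop-helix and ETS factors, and SMAD3 (0.84 ± 0.07, adjusted p = 6.8e-29) rose. The smallest rise was that of ID4 (0.14 ± 0.05, adjusted p = 0.00989), and it missed the threshold when low density replicate 3 (0.10, adjusted p = 0.116) was left out, or high density replicate 2 (0.11, adjusted p = 0.0622), and under median-of-ratios scaling (0.07, adjusted p = 0.154). MYC, which represses CDKN1A and drives growth, had 309.9, 283 and 374 normalized counts at low density, against 455, 452 and 449 at high density, a fall (−0.50 ± 0.07, adjusted p = 1.9e-11) opposite in sign to PTTG1. SMAD4 (−0.29 ± 0.06, adjusted p = 9.8e-07) and FOXO4 (−0.29 ± 0.10, adjusted p = 0.00896) fell, and FOXO4 lost its call without low density replicate 2 (−0.20, adjusted p = 0.119). Neither SMAD4 (−0.14, adjusted p = 0.0680) nor FOXO4 (−0.15, adjusted p = 0.235) passed with scaling to the positive controls. SP1, EP300, CREBBP and SMAD2 did not pass (log2 differences 0.04, 0.22, −0.11 and −0.0018). EP300 passed without high density replicate 3 (0.30, adjusted p = 0.0323), under positive control scaling (0.37, adjusted p = 0.00492) and without the mean trend (adjusted p = 0.0444), but lay at 0.05 under quantile normalization (adjusted p = 0.548). CREBBP passed without low density replicate 3 (−0.21, adjusted p = 0.0185) and under median-of-ratios scaling (−0.17, adjusted p = 0.0427).

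**Figure D3:**
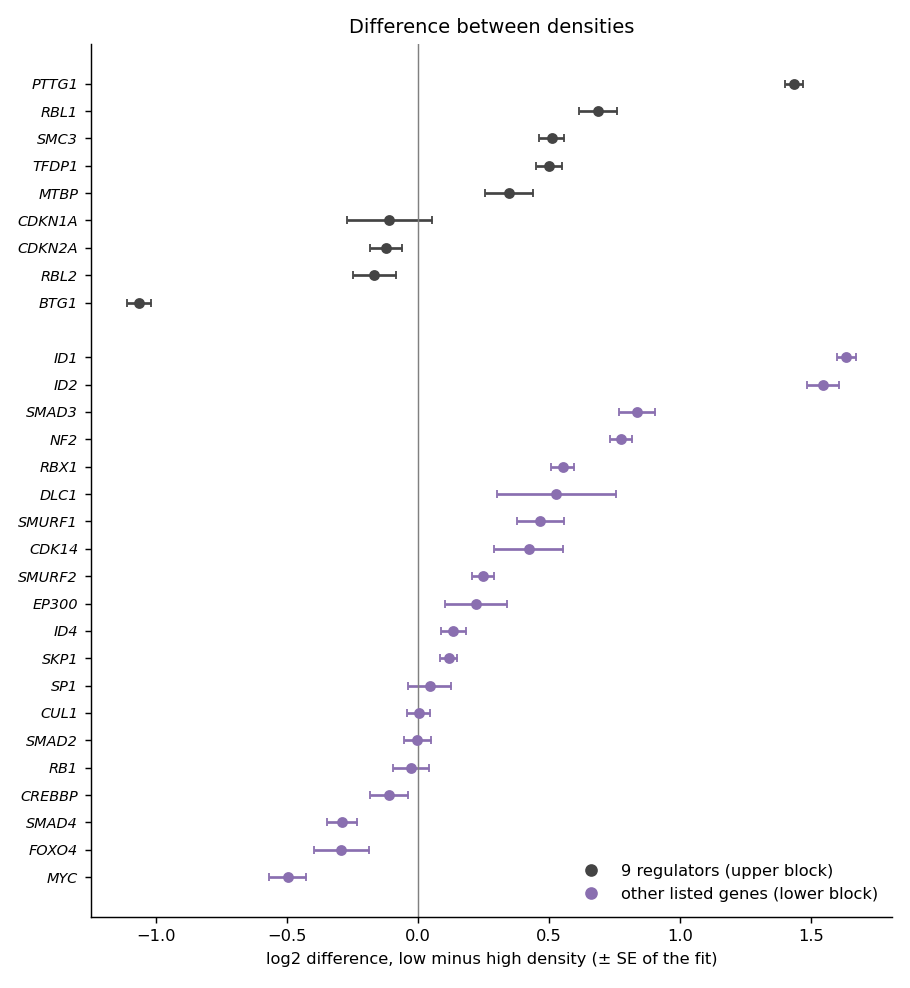
Log2 difference, low minus high density, with its SE (x axis), for the 9 genes in the upper block and other listed genes in the lower block, each ordered by value. PTTG1 (1.43) and BTG1 (−1.06) bound the upper block, and ID1 (1.63) and MYC (−0.50) the lower one.

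The genes whose profile over the 6 samples was most like that of PTTG1, by the root mean square distance between log2 values centered on each gene, were HPSE (heparanase, distance 0.051), ID2 (0.059) and LAMA1 (a laminin chain, 0.060). HPSE had 656 ± 11.5 normalized counts in low density samples and 242 ± 15.1 at high density (SD, n = 3 each). For BTG1 the nearest were KRT19 (a keratin, 0.053) and CD82 (a tetraspanin, 0.058), of which KRT19 had 1834 ± 80.0 in low density samples and 3589 ± 86.9 at high density. None of these genes was among the 9.

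Depth was similar in all samples, at 554858 to 696309 barcodes per sample, and the 8 negative controls averaged 6 to 10 counts. High density replicate 3 was the shallowest. All 6 markers of the carcinoma line on the panel (EPCAM, KRT7, KRT19, CDH1, CLDN3 and CLDN4) lay above the floor, with summed values of 16601 to 17198 at low density, against 22476 to 23109 at high density, while PAX8, WT1 and MUC16, which define the tissue of origin, were not analysed here. Of the markers of other cell types, 1 of 4 endothelial (KDR), 1 of 3 leukocyte (CXCR4) and 1 of 7 fibroblast markers (COL1A1) lay above the floor. Their summed values were 47.3 to 63.1 (endothelial), 46.7 to 63.9 (leukocyte) and 79.7 to 92.0 (fibroblast) in low density samples and 60.7 to 82.9, 59.7 to 77.4 and 73.7 to 87.8 at high density. The part of these marker differences in the results above was not tested.

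**Figure D4:**
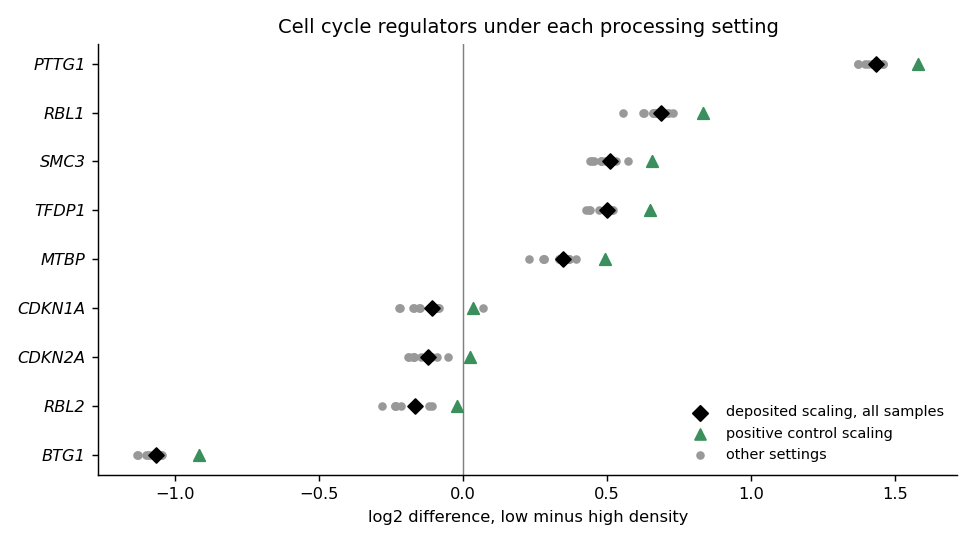
Log2 difference, low minus high density (x axis), of the 9 genes under the deposited scaling (diamonds), scaling to the positive controls (triangles) and the other settings (gray points). PTTG1 spanned 1.37 to 1.58 and BTG1 −1.13 to −0.92. RBL2 spanned −0.28 to −0.02, CDKN1A −0.22 to 0.07 and CDKN2A −0.19 to 0.02.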

How the data were processed

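RNA of NIH:OVCAR-3 cells was read with the nCounter PanCancer Progression Panel. The authors deposited a signal, namely barcode counts times 1 factor per sample that set the geometric mean of 30 reference genes to 383.3 (a scaling inferred from the values). The software is not given in the sources used here. Both sets of controls, 8 negative and 6 positive, were deposited as whole, unscaled counts. Values under 100 were whole multiples of 1 step per sample, to within 0.1 count, in 98.9% to 100% of cases, which gave counts and depth.

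Tests covered the 480 of 740 genes outside the reference set whose mean reached 20. Values were taken as log2(value + 1), which understates changes of weak genes, and fitted with limma 3.58.1 in R 4.3.3 (low minus high density, mean trend, two-sided, Benjamini-Hochberg adjustment over the 480 genes, threshold 0.05, no replicate block). The moderated fit borrows spread across genes (457 prior degrees of freedom), so its p-values lie far below those that an exact permutation test of 3 against 3 can reach (0.1). Data were simulated for 479 genes, with the same spread beyond counting error given to every gene. A true log2 difference of 0.25 was called in 48 of 66 genes, one of 0.5 in 60 of 65 and one of 1 in 66 of 66. Of 282 genes with no true difference, 3 were called. Spread that differs from gene to gene was not simulated, so these rates were not tested for that case. Alternatives included edgeR 4.0.16 and DESeq2 1.42.0 on the recovered counts, other scalings, filters and pseudocounts, a replicate block and leaving out each sample.

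Named were the 9 genes, every listed cell cycle gene past the threshold, and the 3 genes most like PTTG1 and BTG1. Of these, 1 listed gene that fell and 1 of the genes most like BTG1 are counted but not reported here. The 9 genes and the lists were chosen with earlier results of these data known, and the RBL1 promoter was shown after its motifs had been seen. All 9 symbols were current in RefSeq (GRCh38.p14), as were 755 of the 770 genes, the other 15 being older symbols.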

Additional observations from a re-analysis of the deposited data

How the results depend on the processing

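The count of genes that differed between densities (318 of 480) was 264 (the methods' t-test) to 332 (no filter) when filter, pseudocount, scaling or test was changed, among them 327 by edgeR and 269 by DESeq2, and 293 to 316 when each sample was left out. A minimum log2 difference of 0.5 left 146 genes, by construction. Of the 21 other cell cycle genes, 15 passed, 11 to 16 under the same settings and 13 to 15 when each sample was left out, and 6 passed the minimum of 0.5. The labels do not say whether equal replicate numbers pair the samples. Deviations of same-numbered samples correlated at 0.12, −0.11 and −0.03, and those of differently numbered samples at −0.11 to 0.13. With 3 samples per group this cannot settle the pairing. With the replicate numbers as a block 320 genes passed, 14 of the 21 and 7 of the 9 (RBL2 in addition), with DLC1 lost (adjusted p = 0.0520).

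The 6 genes of the 9 that passed did so with one sign in the 18 settings that set no minimum difference. The 9 genes were chosen on this contrast, so passing or missing here describes the processing and is no test of a gene. With a minimum of 0.5, 5 of the 9 passed, and MTBP (0.35) was lost. RBL2 (−0.17) passed in 6 of the 18, with the replicate block, by edgeR (−0.17), under quantile normalization (−0.28) and median-of-ratios scaling (−0.23), and when low density replicate 1 (−0.24) or high density replicate 3 (−0.21) was left out. Leaving out low density replicate 2 gave −0.11, and leaving out high density replicate 1 gave −0.12. CDKN2A (−0.12) passed in 6, under median-of-ratios scaling (−0.19), by edgeR (−0.13) and DESeq2 (−0.19), and when low density replicate 1 (−0.17), high density replicate 2 (−0.17) or high density replicate 3 (−0.15) was left out. Leaving out high density replicate 1 gave −0.05, and leaving out low density replicate 3 gave −0.09. CDKN1A passed in none. SMAD2 lay at −0.0018 and passed at 0.145 (adjusted p = 0.0464) under positive control scaling, where CUL1 (0.15, adjusted p = 0.0259) and EP300 (0.37, adjusted p = 0.00492) also passed. That scaling also shifted the log2 difference of the median gene by 0.15. Why the positive controls and the reference genes gave unlike scales was not tested. Other calls lost were DLC1 in 11 of 17 settings, ID4 in 7, CDK14 in 4, FOXO4 in 3, SKP1 in 2 and SMAD4 in 1. The low counts of CDKN1A limit what could be detected.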

Other observations

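The spread between replicates can be set beside the spread that counting alone would give. RBL1 had a coefficient of variation of 5.07% in low density samples and 4.04% at high density, against 4.61% and 6.30% from counting alone, and MTBP had 2.66% and 8.01%, against 6.35% and 7.68%. PTTG1, with 2329 to 8216 barcodes per sample, varied by 3.78% in low density samples and 3.12% at high density, against 1.12% and 1.99% from counting.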
